A study of Mus musculus with 24 samples.

Results

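Neutrophil granule and receptor genes are described here: S100a8, S100a9, Ngp, Ltf, Camp, Retnlg, Mmp8 and Mmp9, which encode proteins of neutrophil granules and cytosol, and Csf3r and Cxcr2, which encode receptors. The members are all probe sets that the array's annotation assigns to one of these 10 genes and to no other gene, dim ones included. This gave 10 probe sets for 9 genes, of 18193 genes with a probe set of their own. Mmp9 had 2 probe sets and each of the other 8 genes had 1, all on the first of a pair of arrays. Retnlg, which encodes a resistin-like protein, had none and is not analysed here.

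The samples were total RNA of mouse lung in 4 groups: IL-13 KO mice given HDM (KO HDM), IL-13 KO mice given PBS (KO PBS), wild-type mice given HDM (WT HDM) and wild-type mice given PBS (WT PBS). The labels abbreviate both agents: HDM commonly stands for house dust mite, an allergen source, and PBS for phosphate-buffered saline. Each group had 3 samples, run on a pair of arrays, set A and set B, that were matched by their titles. Interleukin 13 is a cytokine of type 2 immunity, and the design asks how HDM changes the lung with and without it. The sources used here give neither the way the Il13 gene was disrupted nor strain, age, sex, dose, route, schedule or any pooling of animals. Nothing in the labels shows that replicates were different animals, and the p-values may therefore rest on technical spread alone.

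Neutrophils are short-lived phagocytes that are made in the bone marrow and recruited from blood into inflamed airways. Their granule proteins are made in waves as the cells mature: primary granule enzymes in early precursors, then the proteins of secondary granules, then those of tertiary granules. G-CSF, acting on Csf3r, drives their production and release, and ELR chemokines such as Cxcl1, Cxcl3 and Cxcl5 attract them through Cxcr2. Mature cells keep high levels of S100a8 and S100a9 mRNA, while mRNAs of early granule proteins are largely lost before the cells leave the marrow. In bulk lung RNA, fewer cells of a type and less RNA per cell cannot be told apart.

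S100a8 and S100a9 were high in the same samples, and their genes are neighbouring coding genes on chromosome 3, so their promoters are shown first. Each line holds the 250 bases before the start of the gene, on the strand of the gene, from RefSeq (GRCm38.p6). The S100a8 sequence is chr3:90668821-90669070 on the plus strand and the S100a9 sequence is chr3:90695722-90695971 on the minus strand. Capitals mark matches, on either strand, to 3 short motifs. The first, TTGCNNAA, is part of many binding sites of C/EBP proteins. PU.1, another transcription factor of the myeloid lineage, is represented by one common form of its site, GAGGAAG. The last motif is the TATA box, searched as TATAAA.

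S100a8: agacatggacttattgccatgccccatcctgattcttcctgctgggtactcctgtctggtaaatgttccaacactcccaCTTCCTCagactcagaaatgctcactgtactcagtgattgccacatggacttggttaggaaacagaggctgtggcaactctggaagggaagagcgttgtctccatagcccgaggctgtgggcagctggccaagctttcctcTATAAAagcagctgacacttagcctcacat
S100a9: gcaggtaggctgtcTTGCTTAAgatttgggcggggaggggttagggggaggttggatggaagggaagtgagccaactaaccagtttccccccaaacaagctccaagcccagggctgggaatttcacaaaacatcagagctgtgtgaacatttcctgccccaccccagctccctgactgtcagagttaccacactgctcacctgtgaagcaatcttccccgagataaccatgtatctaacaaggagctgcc

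C/EBP proteins and PU.1 are transcription factors of granulocyte and monocyte development. The S100a8 window held a PU.1 match at 171 to 165 bases and a TATA match at 30 to 25 bases before the start, and the S100a9 window held a C/EBP match at 236 to 229 bases before it. Promoter entries were found for 9 of the 10 genes, Mmp9 being the one without. The C/EBP letters occurred in 5 of these 9 windows (S100a9, Ngp, Ltf, Retnlg and Mmp8), against 9.55% of 27025 mouse promoters of the same length. The PU.1 letters occurred in 3 of 9 (S100a8, Csf3r and Mmp8), against 10.4% of all. The TATA letters occurred in 1 of 9 (S100a8), against 13% of all. A match of letters is a description of the window and not a binding site. Ngp, Ltf, Camp and Mmp8 lie on chromosome 9, Csf3r on chromosome 4, Mmp9 on chromosome 2 and Cxcr2 on chromosome 1.

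The values are the authors' linear intensities, scaled so that every array has the same trimmed mean of 150, and levels of different probe sets cannot be compared with each other. Tests were made on log2(value + 7) for set A and log2(value + 11) for set B, a scale that understates the change of dim probe sets. A probe set is called where its Benjamini-Hochberg adjusted p from limma, over all 45037 probe sets, is under 0.05. Of the 10 member probe sets 8 had a mean above the 30th percentile of their array. The exceptions were Camp, at the 7.21 percentile, and the second Mmp9 probe set (1448291_at), at the 27.0 percentile. The arrays gave no detection calls used here, so the number of arrays limits the precision.

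Some samples stand apart. In WT HDM replicates 1 and 2 and WT PBS replicate 2 the skeletal muscle gene Tnnc2 read 198, 988 and 413, against at most 6.97 in the other 9 samples. Results are therefore also given without these 3 samples. All 3 are wild type, and leaving them out keeps WT HDM replicate 3 and WT PBS replicates 1 and 3. WT HDM then has a single sample, so the log2 difference is given in place of a p-value. For a call lost there, muscle signal and fewer samples cannot be told apart. The ratio of the 5′ to the 3′ beta-actin probe sets, a sign of RNA quality, was 0.464 to 0.656 on set A in KO HDM, against 0.748 to 0.854 in KO PBS and 0.695 to 0.832 in WT HDM, so KO HDM overlapped neither. In WT PBS it ran from 0.409 to 0.898, with replicate 2 the lowest of the 12. On set B KO HDM overlapped KO PBS (0.428 to 0.612, against 0.610 to 0.897). The part of RNA quality in the HDM differences in KO, those of S100a8, S100a9, Elane and Slpi among them, was not tested. Lung identity was clear from the 6 epithelial markers (surfactant, secretoglobin and Ager genes), whose summed intensity was 28037 or more in every sample. Il13 read 8.71 to 15.5 in KO HDM, 3.3 to 9.45 in KO PBS, 15.5 to 29.9 in WT HDM and 4.65 to 12.1 in WT PBS. It is not a check of genotype, since the position of its probes relative to the deletion is unknown.

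No member probe set was called for HDM against PBS, in either genotype. In IL-13 KO 0 of 10 were called, where 5.52% of all probe sets were, and in wild type 0 of 10, where 4.83% were. At an unadjusted p under 0.05 the members numbered 2 of 10 in KO (S100a8 and S100a9, both lower after HDM), against 18.7% of all probe sets, and 1 of 10 in wild type (Csf3r, higher), against 16.4%. The groups did not overlap for 4 of 10 in KO and 1 of 10 in wild type, against 26% and 20.2% of all probe sets. The median member log2 difference between HDM and PBS was 0.10 in KO and 0.07 in wild type, against 0.01 and 0.00 over all probe sets. These counts are small, and none of the shares is read as a result about the members.

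**Figure D1:**
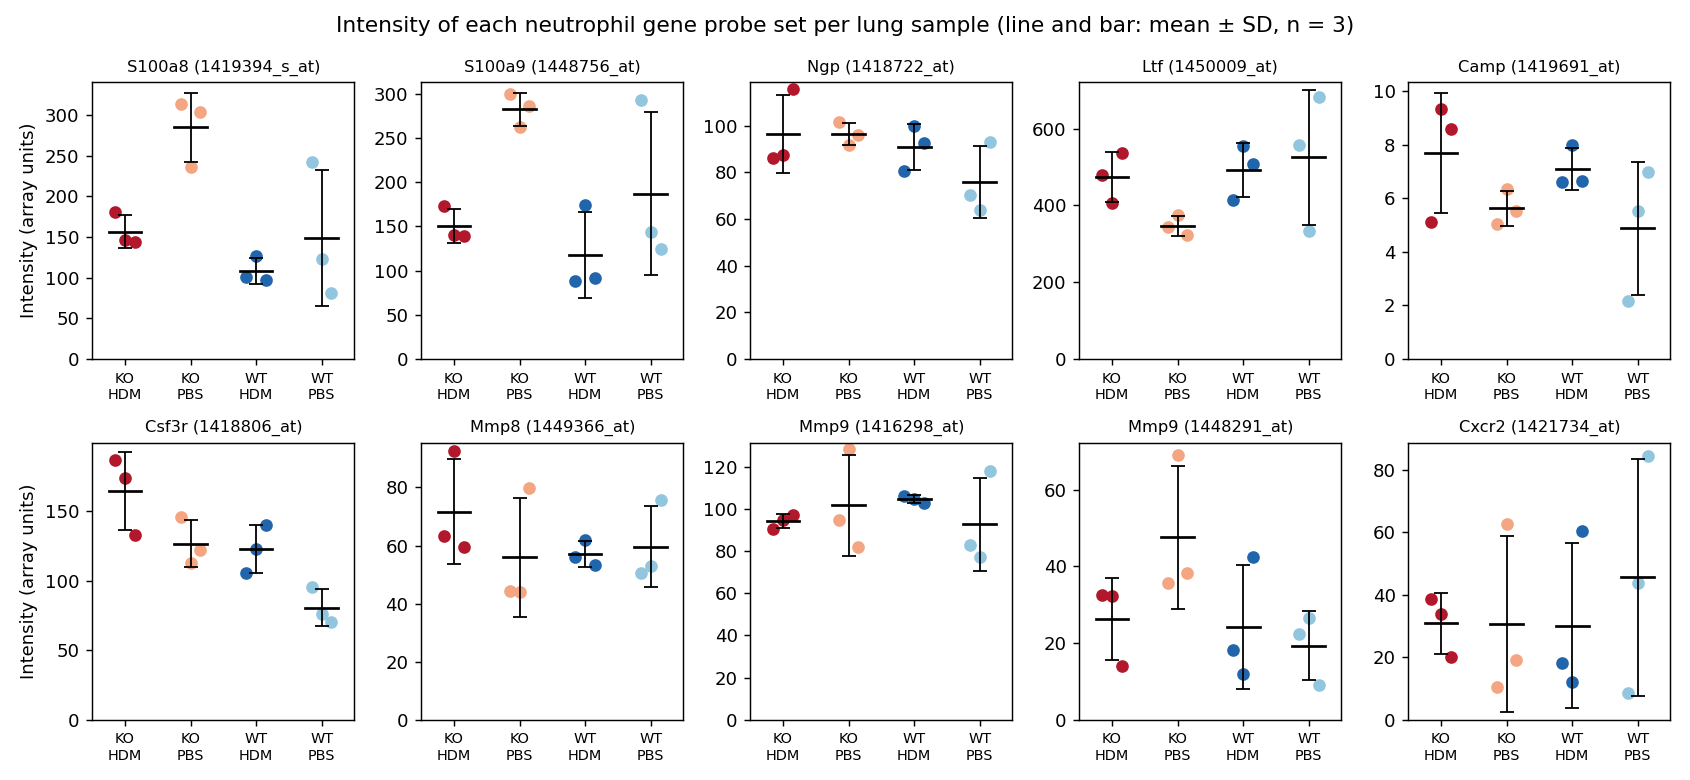
Intensity (linear, arbitrary scanner units, scaled by the authors) of each member probe set in the 12 samples, 1 panel per probe set, with a point per sample and the mean and SD of each group of 3. KO PBS holds the highest S100a8 and S100a9 values and WT PBS replicate 1 lies well above the other WT PBS samples in both, while the groups overlap in most other panels.

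S100a8 and S100a9 encode the subunits of calprotectin, a calcium- and zinc-binding protein of the neutrophil cytosol that is also made by monocytes. S100a8 (probe set 1419394_s_at, whose suffix marks probes that may match several transcripts) read 181, 147 and 143 in KO HDM, against 314, 236 and 304 in KO PBS. It read 100, 127 and 97.2 in WT HDM, against 242, 123 and 81.1 in WT PBS. All 3 KO HDM samples were thus below all 3 KO PBS samples, while the wild-type groups overlapped, with WT PBS replicate 1 about as high as the KO PBS samples. The log2 difference between HDM and PBS was -0.83 ± 0.30 in KO (SE; limma adjusted p = 0.144, 95% interval -1.48 to -0.18). In wild type it was -0.31 ± 0.30 (adjusted p = 0.700), and 0.10 with the sign turned when WT PBS replicate 1 was left out (adjusted p = 0.903). The difference between these effects was -0.52 ± 0.42 and was not called (adjusted p = 0.958), so it is not shown that the genotypes differ in this effect.

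S100a9 (1448756_at), like S100a8, had its highest mean in KO PBS and its lowest in WT HDM. It read 173, 140 and 139 in KO HDM, against 299.5, 263 and 286 in KO PBS. It read 88.0, 174 and 91.9 in WT HDM, against 293, 144 and 124 in WT PBS. Again KO HDM lay wholly below KO PBS, and WT PBS replicate 1 was the high sample of its group. The log2 difference between HDM and PBS was -0.88 ± 0.30 in KO (limma adjusted p = 0.123) and -0.60 ± 0.30 in wild type (adjusted p = 0.358). Without WT PBS replicate 1 the wild-type difference was -0.24 (adjusted p = 0.751). Of 20 alternative settings 1 called both genes in KO, namely leaving out WT PBS replicate 1 (adjusted p = 0.0299 for S100a8 and 0.0458 for S100a9). The fold changes stay at -0.83 and -0.88 there by construction, since that sample enters the KO contrast only through the shared estimate of spread.

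Some red cell genes and the platelet gene Ppbp, which mark blood in the tissue, were also lower after HDM. Over the 4 measured of 10 listed red cell genes (Hba-a1, Alas2, Slc4a1 and Epb42) the summed intensity was 490 to 739 in KO HDM, against 1526 to 1932 in KO PBS, and 607 to 665 in WT HDM, against 1156 to 1609 in WT PBS. Alas2, the heme synthesis enzyme of red cell precursors, fell by 1.68 on the log2 scale in KO (limma adjusted p = 0.000217) and by 1.27 in wild type (adjusted p = 0.00133). The Alas2 call in wild type was lost without the 3 samples with muscle signal (log2 difference -1.11). Slc4a1, the red cell anion exchanger, fell by 1.59 in KO (adjusted p = 0.00426), and its difference in wild type was -0.32 (adjusted p = 0.643). Hba-a1 was not called in either genotype, and 0 of the 4 genes were at 0. Of the 6 platelet genes Ppbp was called, lower in both genotypes, and the list's summed intensity was 743 to 852 in KO HDM, against 760 to 850 in KO PBS. The part of blood content in the S100a8 and S100a9 values was not tested.

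Both S100 genes were high in the same samples. Split at an S100a8 intensity of 200, a cut set after the values were seen, the samples fell into separate clusters. KO PBS replicates 1, 2 and 3 with WT PBS replicate 1 were all at 236 or more for S100a8 and 263 or more for S100a9. The other 8 were at 181 or less and 174 or less. No correlation is therefore given over all 12. Within the 8 lower samples Pearson's r of the log2 values was 0.70 (exact permutation p = 0.0561) and Spearman's rho 0.64 (exact permutation p = 0.0962), neither under 0.05, and r was 0.81 in the 6 samples left without the 2 farthest from the S100a8 median. For the other 44 pairs of member probe sets, over 12 samples, the median r was 0.08, r lay between -0.66 and 0.55, and 0 pairs passed a permutation test adjusted over 45 pairs (smallest adjusted p = 0.434, 1 pair at an unadjusted p under 0.05). The members other than S100a8 and S100a9 therefore showed no shared pattern that this number of samples could resolve.

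**Figure D2:**
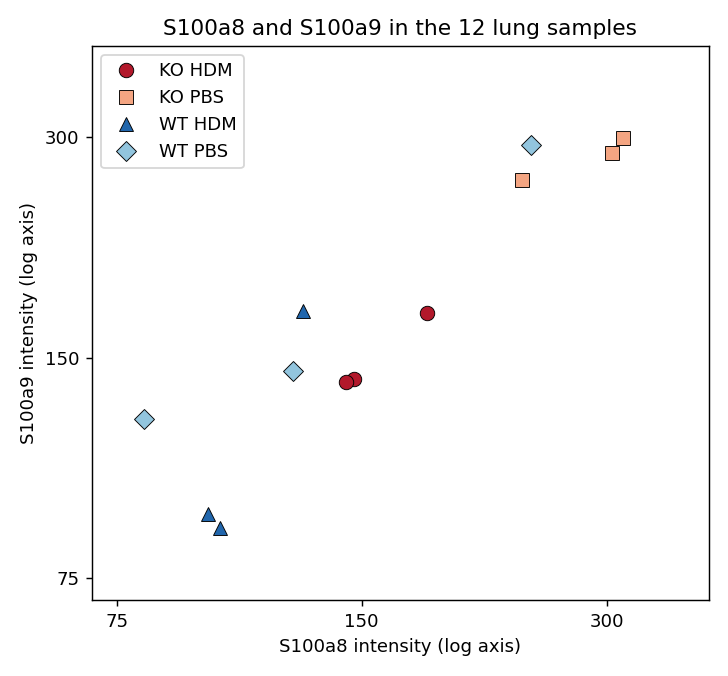
S100a9 against S100a8 intensity (both log axes), 1 point per sample, colour and shape by group. The 3 KO PBS samples and 1 WT PBS sample lie at the upper right, at 236 or more for S100a8 and 263 or more for S100a9, and the other 8 samples lie at or below 181 and 174.

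Among secondary granule genes, Ngp (neutrophilic granule protein, 1418722_at), a cystatin-like protein, read 86.4, 87.5 and 116 in KO HDM, against 101, 91.8 and 96.0 in KO PBS. It read 80.6, 99.7 and 92.5 in WT HDM, against 70.3, 64.0 and 93.2 in WT PBS. The groups overlapped in both genotypes, with log2 differences of -0.01 ± 0.19 in KO (limma adjusted p = 0.989) and 0.25 ± 0.19 in wild type (adjusted p = 0.598). The 95% intervals ran from -0.43 to 0.41 in KO and from -0.16 to 0.67 in wild type, so a log2 difference of 1 lay outside both.

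Ltf encodes lactoferrin, an iron-binding protein of secondary granules that glandular and airway epithelium also secretes. Ltf (1450009_at) read 479, 407 and 537 in KO HDM, against 343, 376 and 323 in KO PBS. It read 415, 554 and 508 in WT HDM, against 558, 334 and 683 in WT PBS. KO HDM lay wholly above KO PBS, while WT PBS had the widest spread of the 4 groups and enclosed WT HDM. The log2 difference between HDM and PBS was 0.44 ± 0.22 in KO (limma adjusted p = 0.314) and -0.04 ± 0.22 in wild type (adjusted p = 0.963). Camp, which encodes the antimicrobial peptide precursor cathelicidin, read between 2.15 and 9.35 in all 12 samples, near the floor of the array. Its differences of 0.21 ± 0.19 in KO and 0.27 ± 0.19 in wild type describe a dim probe set and were not called (limma adjusted p = 0.614 and 0.554).

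The metalloproteinases showed no called difference either. Mmp8, neutrophil collagenase (1449366_at), read 63.1, 92.4 and 59.5 in KO HDM, against 44.3, 43.9 and 79.7 in KO PBS. It read 56.0, 62.0 and 53.3 in WT HDM, against 50.4, 52.8 and 75.5 in WT PBS. The groups overlapped, with log2 differences of 0.35 ± 0.27 in KO (limma adjusted p = 0.547) and -0.04 ± 0.27 in wild type (adjusted p = 0.974).

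Mmp9, gelatinase B of tertiary granules and also a macrophage product, had 2 probe sets that disagreed. The brighter one (1416298_at) averaged 94.1 ± 3.34 in KO HDM and 102 ± 24.0 in KO PBS, and 105 ± 1.72 in WT HDM and 92.6 ± 22.0 in WT PBS (SD, n = 3 each). The dimmer one (1448291_at) read 32.5, 32.4 and 13.9 in KO HDM, against 35.6, 69.1 and 38.1 in KO PBS, groups that did not overlap. It read 18.1, 11.9 and 42.4 in WT HDM, against 22.2, 26.5 and 9.19 in WT PBS. For HDM against PBS in KO the brighter probe set differed by -0.08 ± 0.20 (limma adjusted p = 0.886) and the dimmer by -0.72 ± 0.42 (adjusted p = 0.396) on the log2 scale. Over the 12 samples their log2 values had an r of -0.01 (permutation p = 0.967, adjusted over the 45 pairs 0.967) and a rho of -0.17 (permutation p = 0.589, adjusted 0.821). Without the 2 samples farthest from the median of the first, r was -0.60, so the data hold no single Mmp9 pattern.

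The receptors differed in how well they could be measured. Csf3r, the G-CSF receptor (1418806_at), read 187, 173 and 133 in KO HDM, against 145, 112 and 122 in KO PBS. It read 105, 123 and 140 in WT HDM, against 95.3, 76.0 and 69.9 in WT PBS. All WT HDM samples lay above all WT PBS samples, and KO HDM overlapped KO PBS only through its replicate 3. The log2 difference was 0.35 ± 0.19 in KO (limma adjusted p = 0.346) and 0.57 ± 0.19 in wild type (adjusted p = 0.124, 95% interval 0.16 to 0.98). Neither was called, and their difference of -0.22 ± 0.27 was not called (adjusted p = 0.972). Cxcr2, the receptor for ELR chemokines (1421734_at), lay at the 30.4 percentile of its array and ranged from 8.58 to 84.5 within WT PBS alone. It averaged 30.8 ± 9.73 in KO HDM and 30.7 ± 28.0 in KO PBS, and 30.2 ± 26.3 in WT HDM and 45.6 ± 38.0 in WT PBS (SD, n = 3 each). Its 95% interval for the HDM difference ran from -1.24 to 1.69 in KO and from -1.86 to 1.08 in wild type, so a log2 difference of 1 in either direction was not detectable in either genotype.

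**Figure D3:**
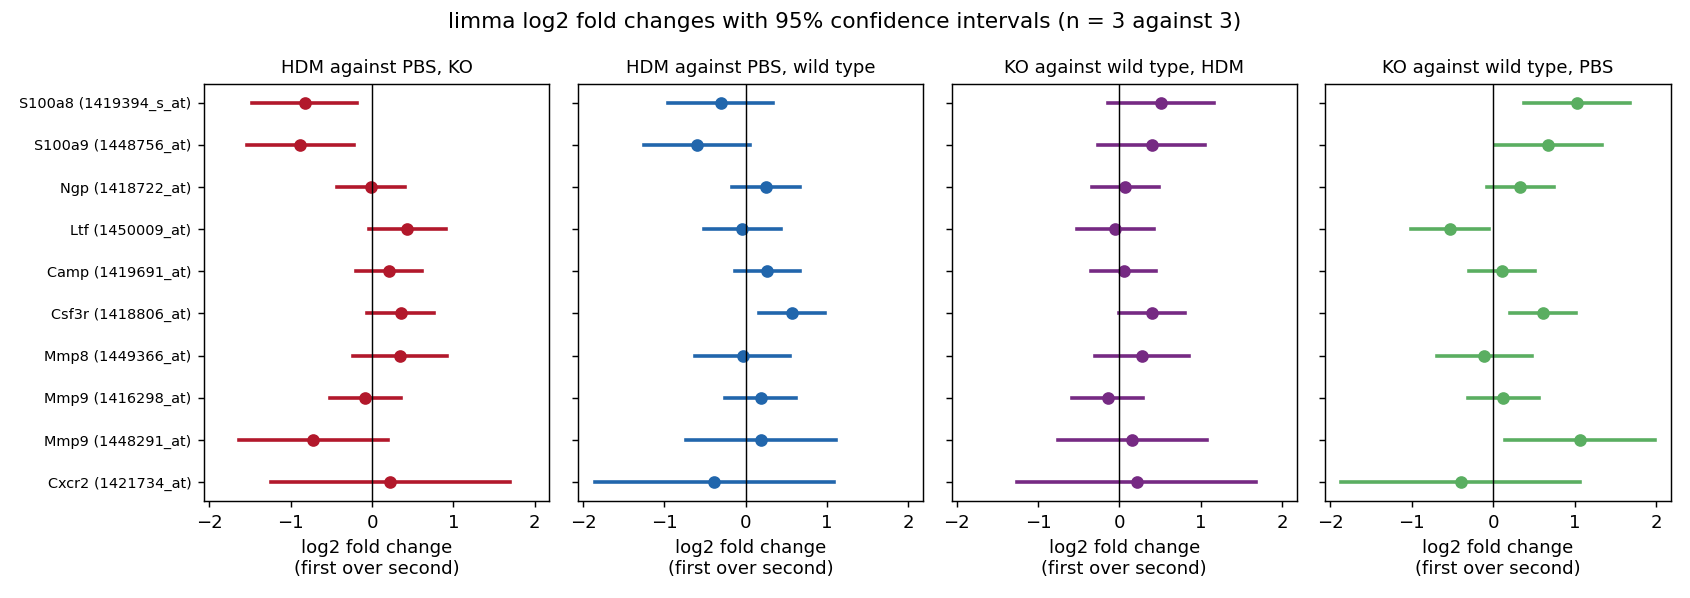
limma log2 differences of the 10 member probe sets with 95% confidence intervals (x axis) for 4 comparisons: HDM over PBS in KO, HDM over PBS in wild type, KO over wild type after HDM and KO over wild type after PBS, with 3 against 3 samples in each. Intervals of S100a8 and S100a9 in KO and of Csf3r in wild type do not cross 0 in the HDM panels, yet 0 of the 10 probe sets were called in any panel after adjustment, and Cxcr2 has the widest intervals.

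Between genotypes, 0 of 10 member probe sets were called after HDM, where 0.346% of all probe sets were, and 0 of 10 after PBS, where 0.0289% were. None reached an unadjusted p under 0.05 after HDM (7.83% of all probe sets did), and 5 of 10 did after PBS (6.47% of all). These 5 were S100a8, S100a9, Csf3r and the dimmer Mmp9 probe set, higher in KO PBS, and Ltf, lower in KO PBS. The 2 comparisons of genotype and the 2 of HDM share samples, so a KO PBS group that is high in S100a8 enters both the KO HDM effect and the PBS comparison. The log2 difference between KO PBS and WT PBS was 1.03 ± 0.30 for S100a8 (limma adjusted p = 0.570), 0.68 ± 0.30 for S100a9 (adjusted p = 0.760) and 0.61 ± 0.19 for Csf3r (adjusted p = 0.602). It was 1.07 ± 0.42 for the dimmer Mmp9 probe set (limma adjusted p = 0.712) and -0.53 ± 0.22 for Ltf (adjusted p = 0.734). For S100a8 this difference ran from 0.69 to 1.435 over the 20 alternatives, with 0 calls and a smallest limma adjusted p of 0.0609.

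Of these 5, the groups did not overlap for Csf3r and the dimmer Mmp9 probe set, 2 of 10 against 11% of all probe sets, while WT PBS replicate 1 brought the S100 genes into overlap. The red cell gene Slc4a1, by its brightest probe set, read 263, 187 and 218 in KO PBS, against 72.6, 112 and 93.5 in WT PBS. This log2 difference of 1.21 was not called (limma adjusted p = 0.354), and the part of blood content in the S100 values was not tested. After HDM, S100a8 was higher in all 3 KO HDM than in all 3 WT HDM samples and the brighter Mmp9 probe set lower, 2 of 10 without overlap against 13.8% of all. The log2 differences were 0.51 ± 0.30 for S100a8 (limma adjusted p = 0.760) and -0.14 ± 0.20 for this Mmp9 probe set (adjusted p = 0.940). The difference of the HDM effects between genotypes was called for 0 of 10 members, where 0.0488% of all probe sets were called, and 0 of 10 had an unadjusted p under 0.05, against 5.53% of all.

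Other neutrophil genes were read from lists, each gene by its probe set with the highest mean and called by the same test. The 5 primary granule genes (Mpo, Elane, Prtn3, Ctsg and Ctsc) are made in marrow precursors. By these brightest probe sets 0 of the 5 genes were called in any of the 5 comparisons. Their median log2 difference between HDM and PBS was 0.56 in KO and 0.04 in wild type, against 0.02 and 0.01 over all 18193 genes. Of the 5, Mpo and Ctsc lay above the 30th percentile, while Elane, Prtn3 and Ctsg were dim. Ctsc gave different answers by probe set. A less bright Ctsc probe set was called higher after HDM in KO, by 0.72 ± 0.18 (limma adjusted p = 0.0393), without overlap. In wild type it differed by 0.05 (adjusted p = 0.939). A further Ctsc probe set differed by 0.38 in KO and was not called (adjusted p = 0.367). Elane, neutrophil elastase, read 23.7, 27.8 and 28.8 in KO HDM, against 10.3, 11.4 and 7.42 in KO PBS, without overlap. Its log2 difference in KO was 1.02 ± 0.27 with a limma adjusted p of 0.0512, just outside the threshold. Of 19 alternatives 6 put it inside, among them leaving out WT HDM replicate 1 (0.0498), 2 (0.0122) or 3 (0.0472). The difference stays at 1.02 there by construction, since those samples enter the KO contrast only through the shared estimate of spread. No alternative that left out a KO sample put Elane inside, and over the 19 its adjusted p reached 0.166. The size depends on the pseudocount, at 1.39 with 1 (adjusted p = 0.0841) and 0.49 with 32 (0.0420). In wild type Elane read 23.4, 7.51 and 23.6 after HDM, against 11.2, 9.19 and 10.3 after PBS, a log2 difference of 0.47 ± 0.27 (adjusted p = 0.448).

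Many genes that neutrophils share with other cells rose after HDM. Of 25 other granule and cytosol genes 20 were measured: 10 were higher and 0 lower after HDM in KO, and 9 higher and 1 lower in wild type, against 4.16% higher and 3.73% lower of all genes in KO and 3.95% and 3.53% in wild type. Ncf1, a subunit of the phagocyte NADPH oxidase, read 2018, 1865 and 2128 in KO HDM, against 684, 756 and 603 in KO PBS. It read 1541, 1606 and 1824 in WT HDM, against 575, 450 and 527 in WT PBS. All HDM samples were thus well above all PBS samples, with log2 rises of 1.55 ± 0.12 in KO and 1.66 ± 0.12 in wild type. Cybb, the catalytic subunit of that oxidase, rose by 1.33 in KO and 0.92 in wild type, and Ncf4, another subunit, by 0.89 and 1.27. The Cybb call in wild type was lost without the 3 samples with muscle signal (log2 difference 0.98). Arg2, an arginase, rose by 1.07 in KO and 1.25 in wild type. Less bright probe sets of Cybb, Ncf1 and Arg2 did not all give a call. For Cybb a probe set was not called in KO (log2 difference 0.58, limma adjusted p = 0.138) or wild type (0.48, 0.258). In KO an Arg2 probe set (0.72, limma adjusted p = 0.145) and an Ncf1 probe set (0.58, 0.195) were not called. These 2 were called higher in wild type (1.49 and 1.06). A further probe set each of Cybb and Ncf1 was called higher in both genotypes.

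Other members of that list are secreted proteins. Slpi, a protease inhibitor made by airway epithelium as well as neutrophils, read 4107, 3928 and 4992 in KO HDM, against 423, 345 and 240 in KO PBS. It read 1310, 2033 and 2023 in WT HDM, against 307, 630 and 243 in WT PBS. Its log2 rise was 3.69 ± 0.31 in KO and 2.26 ± 0.31 in wild type. KO HDM against WT HDM differed by 1.30 ± 0.31 without a call (limma adjusted p = 0.162). The adjusted p was 0.0347 without WT PBS replicate 2, a sample that enters this contrast only through the shared estimate of spread. Lcn2, which encodes a siderophore-binding protein of secondary granules and epithelium, rose by 1.02 in KO and 1.38 in wild type. This gene was chosen after its values were seen. Its call in wild type was lost without the 3 samples with muscle signal (log2 difference 1.055). Chil1, a chitinase-like protein, rose by 1.19 in wild type and differed by 0.35 in KO (limma adjusted p = 0.154). Chil1 was lower in KO HDM than in WT HDM by 0.74 (adjusted p = 0.0294), a call lost in 10 of 20 alternatives. Among them were those without any single one of the 6 HDM samples (0.0593 to 0.128) or KO PBS replicate 1 (0.0531). It was also lost without the 3 samples with muscle signal (log2 difference -0.91). Hp, haptoglobin, fell by 1.01 on the log2 scale in wild type. In KO its difference was -0.45, with KO HDM wholly below KO PBS (adjusted p = 0.0570, and under the threshold in 4 of 20 alternatives). Hp was 0.72 higher in KO HDM than in WT HDM (adjusted p = 0.0264), a call lost in 8 of 20 alternatives. These again were those without any single one of the 6 HDM samples (0.0649 to 0.135) or the 3 samples with muscle signal (log2 difference 0.75) among others. The actin ratios of KO HDM and WT HDM did not overlap, and their part in these genotype differences was not tested.

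Among 22 other surface receptors and adhesion genes of neutrophils 19 were measured, of which 10 were higher and 0 lower after HDM in KO and 9 higher and 1 lower in wild type. Over all genes 4.16% were higher and 3.73% lower in KO, and 3.95% and 3.53% in wild type. The same shares stand beside the HDM counts of every other list. Fcgr3, an IgG receptor of myeloid cells, read 535, 541 and 581 in KO HDM, against 104, 81.4 and 123 in KO PBS. It read 482, 511 and 518 in WT HDM, against 116, 99.5 and 121 in WT PBS. The groups lay far apart, with rises of 2.36 ± 0.14 in KO and 2.10 ± 0.14 in wild type on the log2 scale. Csf2rb, the shared beta chain of the receptors for GM-CSF, IL-3 and IL-5, rose by 1.16 in KO and 1.36 in wild type. Itgb2, the beta-2 integrin chain of leukocytes, rose by 0.96 in KO and 1.17 in wild type. Ltb4r1, the leukotriene B4 receptor, rose by 2.10 and 1.93, but its probe set was dim. Over the alternatives this rise ran from 1.13 to 2.80 in KO and from 0.82 to 3.19 in wild type. Selplg, a ligand of P-selectin, rose by 1.33 in KO and 0.88 in wild type. The Selplg call in wild type was lost without WT HDM replicate 3 (adjusted p = 0.0728), WT PBS replicate 3 (0.0566) or the 3 samples with muscle signal (log2 difference 1.24).

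Fpr2, a formyl peptide receptor, was the receptor called lower. It read 213, 212 and 282 in KO HDM, against 188, 207 and 173 in KO PBS. It read 105, 125 and 78.9 in WT HDM, against 171, 167 and 185 in WT PBS. All WT HDM samples lay below all WT PBS samples while all KO HDM samples lay above all KO PBS samples. The log2 difference between HDM and PBS was 0.30 ± 0.18 in KO (limma adjusted p = 0.401) and -0.74 ± 0.18 in wild type (adjusted p = 0.0305). The wild-type call was lost in 7 of 20 alternatives, among them without WT HDM replicate 1 (adjusted p = 0.0644) or 3 (0.116) or any single WT PBS sample (0.0669 to 0.0889). It was also lost without the 3 samples with muscle signal (log2 difference -1.105). Fpr2 was higher in KO HDM than in WT HDM by 1.15 ± 0.18 (limma adjusted p = 0.0141), a call lost in 2 of 20. These were without KO HDM replicate 3 (0.0780) and without the 3 samples with muscle signal (log2 difference 1.49).

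Of 13 ligands and neutrophil-directed cytokines 12 were measured, of which 1 was higher and 1 lower after HDM in KO and 2 higher and 1 lower in wild type. Cxcl3, an ELR chemokine that acts on Cxcr2, read 36.3, 61.3 and 54.8 in KO HDM, against 9.97, 17.7 and 14.9 in KO PBS. It read 245, 207 and 153 in WT HDM, against 13.4, 21.9 and 17.7 in WT PBS. The 3 WT HDM samples were the highest of the 12 and the 3 KO HDM samples came next, above all PBS samples. Cxcl3 rose by 1.28 ± 0.26 on the log2 scale in KO (limma adjusted p = 0.013) and by 2.88 ± 0.26 in wild type (adjusted p = 5.58e-05). KO HDM was lower than WT HDM by 1.78 (log2 difference -1.78 ± 0.26, adjusted p = 0.0105). The difference of the HDM effects, -1.60 ± 0.37, was not called (limma adjusted p = 0.367).

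The Cxcl3 calls were not equally firm. That between genotypes after HDM was lost without KO HDM replicate 1 (adjusted p = 0.0544), WT HDM replicate 1 (0.0556) or WT HDM replicate 2 (0.0601). It was also lost with each array set fitted on its own (0.0826) and without the 3 samples with muscle signal (log2 difference -1.43). The call in KO was lost without KO HDM replicate 2 (0.0579) or 3 (0.0548) or KO PBS replicate 1 (0.0557), and with each set on its own (0.0691). Cxcl5, another Cxcr2 ligand, read 7.86, 10.7 and 7.69 in KO HDM, against 6.14, 6.01 and 4.40 in KO PBS. It read 71.4, 40.8 and 20.2 in WT HDM, against 6.48, 2.02 and 14.1 in WT PBS. It was near the floor in all samples but WT HDM, where it rose by 1.77 ± 0.36 (limma adjusted p = 0.015). This call was lost without WT PBS replicate 2 (0.0625) and without the 3 samples with muscle signal (log2 difference 0.69). Ppbp, a platelet chemokine that is also in the platelet list, fell by 0.95 in KO and 0.97 in wild type. The Ppbp call in KO was lost without KO HDM replicate 1 or 3 or any KO PBS sample (adjusted p = 0.0548 to 0.0930). In wild type it was lost without WT HDM replicate 2 or 3 or WT PBS replicate 2 or 3 (0.0585 to 0.0887). It was also lost there without the 3 samples with muscle signal (log2 difference -0.94).

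Cxcl1, a main Cxcr2 ligand in mice, gave different answers by probe set and is named after its values were seen. Its brightest probe set (1441855_x_at) was not called for HDM against PBS in KO (log2 0.60 ± 0.25, limma adjusted p = 0.223) or wild type (0.44 ± 0.25, adjusted p = 0.439). The other 2 rose in wild type, 1419209_at by 1.54 ± 0.33 (limma adjusted p = 0.0194) and 1457644_s_at by 1.32 ± 0.22 (adjusted p = 0.00381). In KO these 2 differed by 0.30 (adjusted p = 0.699) and 0.61 (adjusted p = 0.137). Of 6 transcription factors of granulocyte development 5 were measured, and Spi1, which encodes PU.1, was the one called. It was higher after HDM by 0.79 ± 0.15 in KO and 0.98 ± 0.15 in wild type. The Spi1 call in wild type was lost without the 3 samples with muscle signal (log2 difference 1.01).

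Markers of other leukocytes moved in the same comparisons. Of 9 monocyte markers measured 4 were higher after HDM in KO and 5 in wild type, 0 lower. Plac8 rose by 1.07 and 0.96 and Csf1r, the M-CSF receptor, by 0.70 and 0.68. The Csf1r call in wild type was lost without the 3 samples with muscle signal (log2 difference 0.86). The summed intensity of the 9 monocyte markers was 6260 to 6787 in KO HDM, against 3801 to 4260 in KO PBS. It was 6255 to 7321 in WT HDM, against 4451 to 4711 in WT PBS. Of 8 macrophage markers 5 were higher and 1 lower in KO, and 5 higher and 0 lower in wild type. Itgax, the CD11c integrin, rose by 1.42 in KO and 2.34 in wild type, and Chil3, a chitinase-like protein of activated macrophages, by 2.53 and 2.74. Less bright probe sets of Car4 and Marco, also in this list, were lower after HDM in KO without overlap. They differed by -0.39 (limma adjusted p = 0.0445) and -0.87 (0.214, not called). In wild type they differed by -0.19 (0.388) and 0.41 (0.662). The macrophage markers summed to 6697 to 7130 in KO HDM, against 2689 to 2722 in KO PBS, and to 7515 to 8342 in WT HDM, against 2320 to 2676 in WT PBS. No gene of any list was at 0. The part of these cells in the rises of the shared phagocyte genes was not tested.

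Eosinophil markers moved as well, with 3 of 7 higher after HDM in KO and 2 in wild type. Rnase2a, an eosinophil-associated ribonuclease gene, rose by 6.17 in KO and 6.20 in wild type, and Prg2, which encodes eosinophil major basic protein, by 1.03 in each. Of the 7 genes only Rnase2a lay above the percentile filter, so Prg2 and Il5ra were dim. Over the alternatives the Rnase2a rise ran from 5.03 to 6.78 in KO and from 5.145 to 6.91 in wild type. Il5ra, the IL-5 receptor chain, rose by 1.76 in KO, and its difference in wild type was -0.23 (limma adjusted p = 0.870). The Il5ra call was lost without any single one of the 6 KO samples (adjusted p = 0.0551 to 0.118) and with a pseudocount of 32 (log2 difference 0.74, 0.0607). That of Prg2 in KO was lost without KO HDM replicate 3 (0.0801) or KO PBS replicate 1 (0.0816). In wild type the Prg2 call was lost without any single WT HDM sample or WT PBS replicate 1 (0.0547 to 0.0686). It was also lost there without the 3 samples with muscle signal (log2 difference 1.07).

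**Figure D4:**
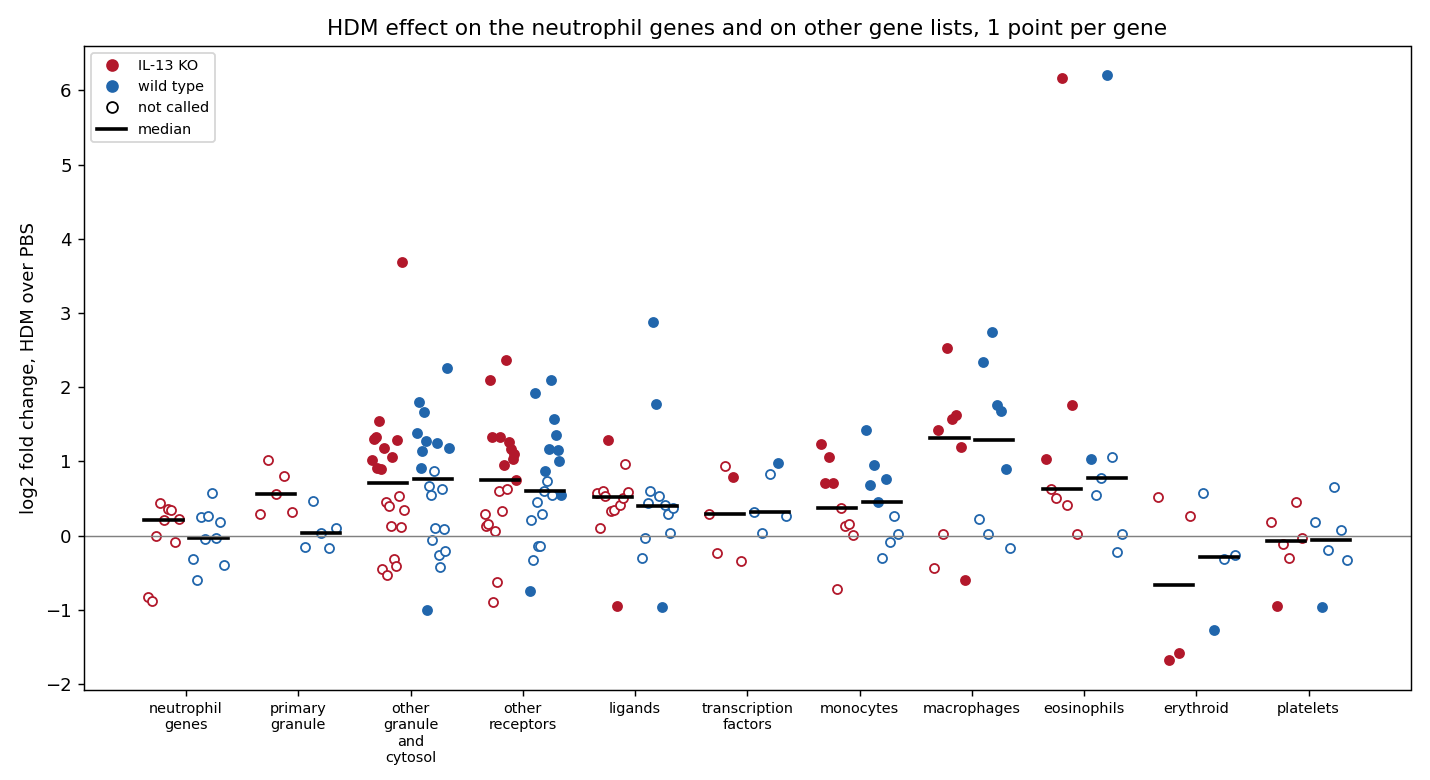
limma log2 difference between HDM and PBS (y axis) for the 9 neutrophil genes and for each measured gene of the other lists, KO left of wild type, filled where called, with the median of each list as a bar. Each gene of the other lists is read by its probe set with the highest mean. None of the neutrophil or primary granule genes is filled, while 10 and 9 of the other granule and cytosol genes and 10 and 9 of the other receptors are filled above 0 in KO and wild type.

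The genes most like the members were sought by Pearson correlation, over 12 samples, with the mean of the members' standardised log2 values, among 14476 other genes. The 8 most alike were Cd99 (r = 0.93), Lpcat4 (0.91), Acsf3 (0.91), Inhbe (0.90), Ptk2b (0.88), Sorcs3 (0.87), Srrm2 (0.86) and Ttc21a (0.86). These r values are the highest of many candidates and carry no test, and 4 of the 8 were still among the 8 most alike after quantile normalization (Lpcat4, Acsf3, Inhbe and Sorcs3). All 8 genes had their lowest value of the 12 samples in WT PBS replicate 2. That sample also had muscle signal and the lowest actin ratio, and its part in the likeness was not tested. The gene most like the mean of S100a8 and S100a9, sought after their values were seen, was Slfn4, a Schlafen family gene of myeloid cells. Slfn4 read 43.1, 51.4 and 51.5 in KO HDM, against 89.4, 78.4 and 98.2 in KO PBS. It read 38.9, 65.2 and 44.2 in WT HDM, against 98.0, 46.6 and 36.8 in WT PBS. Slfn4 (r = 0.92) was high in the same 4 samples as the S100 genes, the KO PBS samples and WT PBS replicate 1. It was chosen for its likeness over these 12 samples, so this follows from the choice. Dcbld2 (0.92), Atrnl1 (0.91), Wdfy3 (0.90) and Chst15 (0.89) came next, and no test was made.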

How the data were processed

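The authors deposited a linear intensity for each probe set on each array. Each array had the same 2% trimmed mean, 150, so the deposited values had already been scaled to it; the software and any detection calls are not given in the sources used here. Gene names came from the platform annotation supplied with the data.

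Values were converted to log2(value + 7) on set A and log2(value + 11) on set B, where 7 and 11 are about the 10th percentiles. All 45037 non-control probe sets were tested without a filter, so that dim members stayed in. limma 3.58.1 (R 4.3.3) fitted 1 model with the 4 groups (8 residual degrees of freedom), eBayes with trend and Benjamini-Hochberg adjustment at 0.05. Correlations and figures used Python 3.11.15, SciPy 1.17.1 and matplotlib 3.10.9; permutation tests were two-sided. The fit was tested on simulated data.

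Alternatives were pseudocounts of 1 and 32, the 30th percentile filter, quantile normalization, a replicate block, no trend, each array set on its own and each sample left out; leaving out 3 samples with muscle signal was added after seeing the data. Named list genes were up to 4 called per comparison by smallest p, or up to 2 where none was called. Members and lists were chosen with earlier results of these data known.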

Additional observations from a re-analysis of the deposited data

Results flagged for a closer look

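The HDM effects on Fpr2 ran in opposite directions: all 3 KO HDM samples lay above the KO PBS samples and all 3 WT HDM samples below the WT PBS samples. The difference of the effects, KO minus wild type, was 1.04 on the log2 scale, but it did not pass the test (limma adjusted p = 0.421). Scgb3a2, a club cell secretoglobin from the list of lung epithelium, differed in its HDM effect between genotypes by 1.16 on the log2 scale (limma adjusted p = 0.0291). It read 4188, 4390 and 4414 in KO HDM, against 5375, 5544 and 4546 in KO PBS, and 1820, 2060 and 1939 in WT HDM, against 5503, 4703 and 5236 in WT PBS. The Scgb3a2 interaction call was lost in 14 of 20 alternatives. The adjusted p reached 0.115 there, the setting without the 3 samples with muscle signal set aside.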

How the results depend on the processing

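No member probe set was called in any of the 5 comparisons under any of the 20 alternatives, except S100a8 and S100a9 for HDM against PBS in KO without WT PBS replicate 1, so leaving out 1 sample in turn gave 0 to 2 calls there. Over all probe sets, 2485 were called for HDM against PBS in KO, with 1360 to 2561 when 1 sample was left out. In wild type there were 2174, with 1229 to 2028 when 1 sample was left out and 799 without the 3 samples with muscle signal. KO against wild type gave 156 calls after HDM (76 to 167 leaving out 1 sample, 21 without the 3 samples) and 13 after PBS (6 to 18, and 4). The difference of the HDM effects gave 22 calls, with 9 to 16 leaving out 1 sample, 11 without a trend and 35 with each array set on its own. All of these main counts were lower without the 3 samples with muscle signal, a fit with a single WT HDM sample. Of the 18 pairs of arrays with the same replicate number 1 had deviations from the group means that correlated above 0.1 (r from -0.07 to 0.17). These correlations show no broad pairing by replicate number and cannot exclude one that touches few genes. With the replicate block the calls numbered 2154 for HDM in KO, 1898 in wild type, 12 for the difference, 126 for KO against wild type after HDM and 9 after PBS, with 0 members. Of 11565 values of single list or member genes under the alternatives, 150 lost a call, 34 gained one and 0 turned round a call. The intensities of Camp, Cxcr2 and the dimmer Mmp9 probe set limit what can be said of them, and the cause of the other losses was not tested.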
